A study of Saccharomyces cerevisiae with 104 samples.

Results

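Ribosome biogenesis genes encode the nucleolar proteins that cut, modify and fold the ribosomal RNA precursor and assemble it with ribosomal proteins into the small and large subunits. In budding yeast these genes form a large regulon that growing cells express strongly and that is turned down together under stress or starvation, mainly through the TOR pathway and promoter-bound repressors. Many of the proteins are essential, and most act in 1 of a few machines: small nucleolar ribonucleoproteins (snoRNPs) that guide RNA modification, the early small subunit precursor, and the pre-60S particle with its helicases and GTPases.

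The members were 36 nucleolar assembly factors, taken by their locus names from a raw count table of 7122 genes (coordinates are those of the RefSeq R64 annotation), and all 36 passed the filter on low counts that left 5822 genes for testing. Messenger RNA had been read from the 3′ end (QuantSeq) in 90 libraries of budding yeast of strain background MSY196, which is based on S288C. The groups were WT (4 libraries) and 29 strains that each carry 1 amino acid exchange in a core histone, 22 in H3 and 7 in H4. A mutant is named by histone, original residue, position and new residue. The H3 mutants were H3T3A and H3T3D (2 libraries each) and H3K4Q, H3K4R, H3K18A, H3S31D, H3K36A, H3K36Q, H3K36R, H3K37Q, H3K37R, H3R40K, H3S86A, H3S86D, H3K115A, H3K115Q, H3K115R, H3K121A, H3K121Q, H3K121R, H3K122A and H3K122Q (3 each). The H4 mutants were H4K44Q, H4K44R, H4R55A, H4K91Q, H4K91R and H4Y88F (3 each) and H4Y88A (4). The labels give no treatment and do not say whether the libraries of a genotype came from separate cultures or clones, so the tests measure only the spread between these libraries.

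A library is referred to by genotype plus the sample number that its column carries, as in WT S133. The numbers fall into 3 runs, called the first, the second and the third set: S46 to S93 (44 libraries, 3 of WT), S94 to S117 (22, none of WT) and S118 to S141 (24, 1 of WT). What the numbers stand for is not given. The 8 mutants H3K18A, H3K37Q, H3K37R, H3R40K, H3S31D, H3T3A, H3T3D and H4R55A lie wholly in the third set, so in their comparisons with the pooled WT libraries set and genotype are partly confounded. Only WT and H4Y88A have libraries in the third set and in another, with 1 third-set library each (WT S133 and H4Y88A S132). A fit with the set as a covariate takes its third-set term from these libraries. Libraries held 768398 to 3143681 counts in genes, except for H3K4R S55, which had 24010. That library stayed in the fits and is left out of ranges over libraries. Apart from H3K4R S55 no library had fewer than 32 counts of any member. The members took 0.860% to 3.17% of a library's gene counts. Markers of mating type α cells (STE3, MF(ALPHA)1, MF(ALPHA)2 and SAG1) summed to 888 to 3652 CPM in every library, and those of mating type a cells to 8.99 to 50.5 CPM.

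Levels are given as CPM, counts per 1e+06 counts scaled with TMM factors (trimmed means of M values). Differences are log2 fold changes from edgeR's quasi-likelihood test fitted to all 90 libraries and 5822 genes, and a gene was called at a Benjamini-Hochberg adjusted p under 0.05 over all tested genes of a comparison. Since the scaling sets total output aside, only levels relative to the other genes of a library are seen. In RNA pooled over cells, less RNA of these genes per cell and fewer expressing cells cannot be told apart.

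Few single members differed from WT past the threshold. Over the 29 mutants, 7 of 1044 member tests were called, 4 higher and 3 lower, in 6 members and 5 mutants. Over all genes 1.4% of tests were called, so the members' share of 0.670% was not above the background. The other 24 mutants had 0 called members, with up to 7.82% of all genes called (in H3T3D). An unadjusted p under 0.05 was reached in 11.1% of member tests, against 11.5% over all genes. In the mean of the 29 mutants against WT, 0 members were called and 0 had an unadjusted p under 0.05, where 0.137% of all genes were called, and the median log2 fold change of the members was -0.06. What the members showed was movement as a block: in several mutants nearly all of them lay on the same side of WT. Single WT libraries moved as a block too, with 33, 4, 8 and 14 members below the WT mean in S46, S81, S82 and S133. In H4Y88A S47, S48, S106 and S132 the numbers were 31, 19, 4 and 0. Since members rise and fall together, those on the same side are not independent observations.

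**Figure D1:**
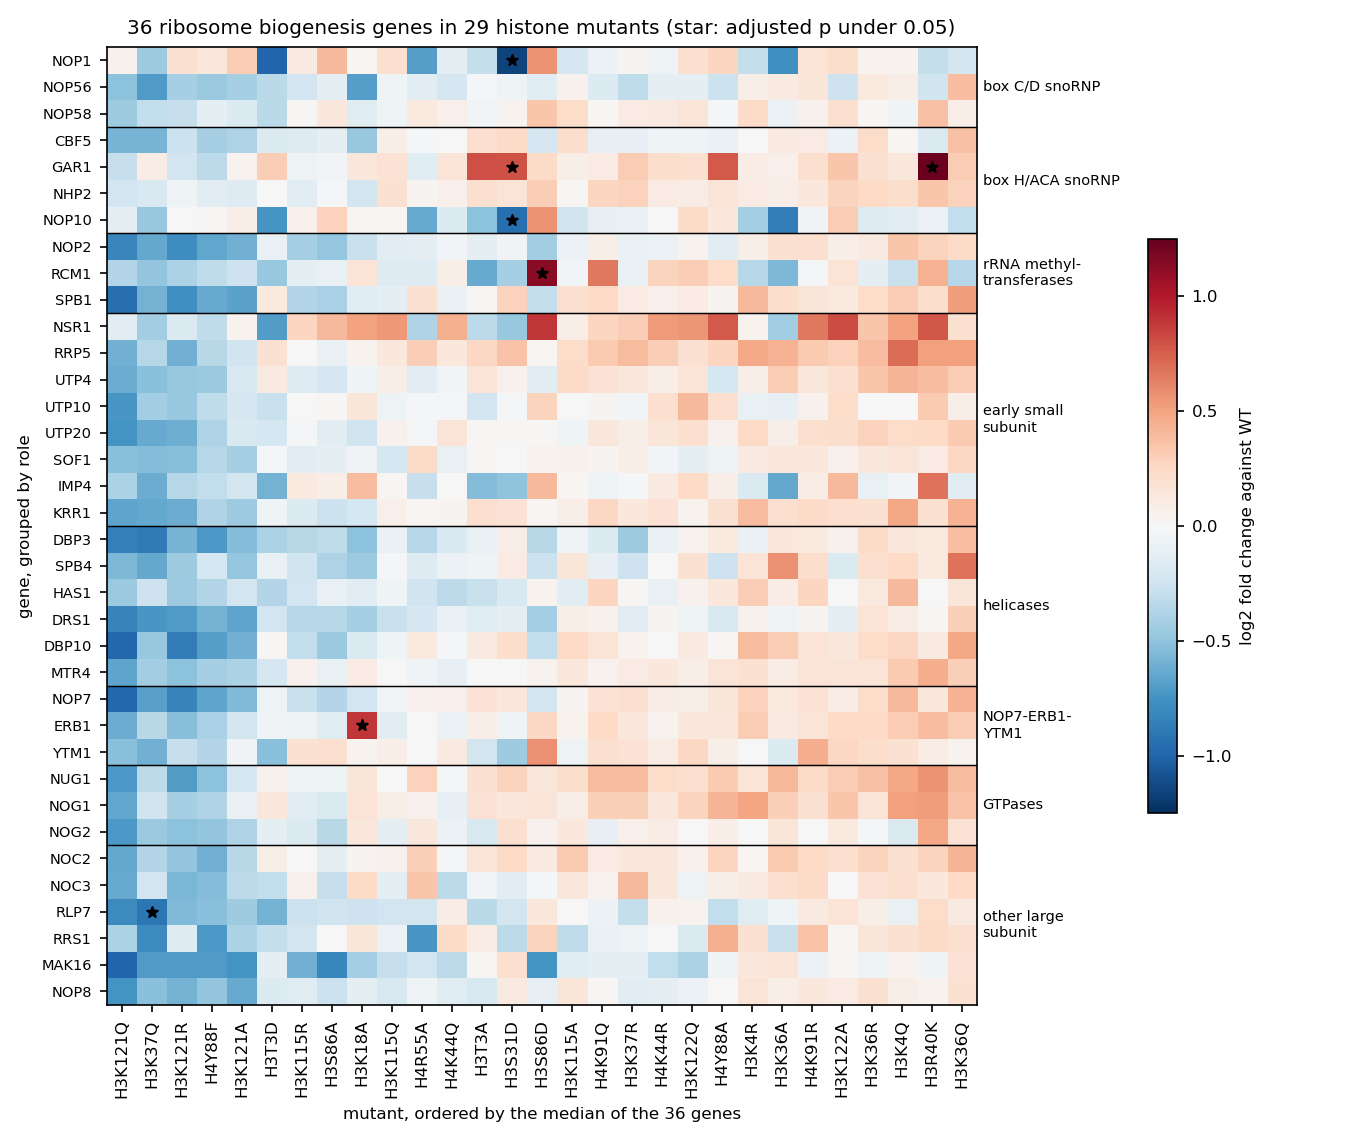
Fitted log2 fold change of each of the 36 genes (rows, grouped by role) in each of the 29 mutants against WT (columns, ordered by the median of the 36 genes), in blue where lower and red where higher, with a star at adjusted p under 0.05. The 5 mutants on the left, H3K121Q to H3K121A, are blue in nearly every row, while the 7 starred values are scattered over GAR1, RCM1, ERB1, NOP1, NOP10 and RLP7.

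The first block difference was between 2 exchanges of the same residue, H3K37Q and H3K37R, whose 6 libraries all belong to the third set. Glutamine is often used to mimic acetylated lysine and arginine to keep the positive charge. All 36 members were lower in H3K37Q than in H3K37R, with a median log2 fold change of -0.55, against 0.01 over all genes. For 31 members every H3K37Q library lay below every H3K37R library, while 12.7% of all genes did so. The unadjusted p was under 0.05 in 18 members in that direction, against 6.48% of all genes. With the spread estimated from all 90 libraries, however, 1 member passed the adjusted threshold, where 4.45% of all genes did.

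That member was YTM1 (YOR272W, chromosome XV, 832813 to 834195), which with NOP7 and ERB1 forms a complex needed to process the large subunit precursor RNA. YTM1 stood at 93.2, 100.6 and 108.3 CPM in the H3K37Q libraries and at 202, 162 and 154 CPM in those of H3K37R. The groups did not overlap, and the log2 fold change was -0.78 (adjusted p = 0.0434, edgeR). It lost the call when any 1 of the 6 libraries was left out. NOP7 (YGR103W, chromosome VII, 695417 to 697234), its partner, had the largest fitted difference, with 562, 397 and 449 CPM in H3K37Q and 956, 744 and 894 CPM in H3K37R (log2 fold change -0.88), again without overlap.

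Fitted to the 24 third-set libraries alone, a choice made after the data were seen, the same comparison called 26 of the 36 members, all lower in H3K37Q. In that fit 12.5% of all genes were called and 5.51% were called as lower. NOP7 differed by -0.91 (adjusted p = 0.000477, edgeR), YTM1 by -0.81 (adjusted p = 0.000801) and UTP20, a scaffold protein of the small subunit precursor, by -0.73 (adjusted p = 0.00104). UTP20 read 252, 205 and 216 CPM in H3K37Q against 395, 329 and 369 CPM in H3K37R. RRP5, which works in the maturation of both subunits, had 1004, 748 and 764 CPM against 1651, 1166 and 1418 CPM (-0.78, adjusted p = 0.00222). MTR4, the helicase that feeds RNA to the nuclear exosome, had 433, 428 and 418 CPM against 675, 585 and 597 CPM (-0.57, adjusted p = 0.00338). In each of these genes the H3K37Q libraries lay wholly below those of H3K37R.

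The calls in the third-set fit came from all roles except the box C/D snoRNPs. They took in all 3 members of the NOP7-ERB1-YTM1 complex and all 3 GTPases (NUG1, NOG1 and NOG2, which act in steps of pre-60S assembly). Among the early small subunit factors NSR1, RRP5, UTP4, UTP20, SOF1, IMP4 and KRR1 were called, but not UTP10. The box C/D snoRNP proteins NOP1, NOP56 and NOP58 were not called, and of the box H/ACA proteins CBF5 and NHP2 were called while GAR1 and NOP10 were not. GAR1 overlapped between the mutants, with 1571, 1274 and 1250 CPM in H3K37Q and 2158, 1263 and 1340 CPM in H3K37R.

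With 1 H3K37Q or H3K37R library left out of the third-set fit, 13 to 25 members were called, beside 7.35% to 11.7% of all genes. The lowest number and share were those without H3K37Q S119, and at least 35 of 36 members stayed lower. Fitted to only the 6 libraries of both mutants, 17 members were called, beside 10.9% of all genes. Genes of chromosome XI had a median log2 fold change of 0.84 in H3K37Q against WT. None of the members lies on that chromosome, but its genes count in the shares of all genes called for H3K37Q. In H3K37R their median was -0.03, and their part in the lower level of the members in H3K37Q was not tested. With scaling factors computed without chromosome XI genes 23 members were still called in the third-set fit, beside 11.95% of all genes. YTM1 was then not called in the fit to all 90 libraries.

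**Figure D2:**
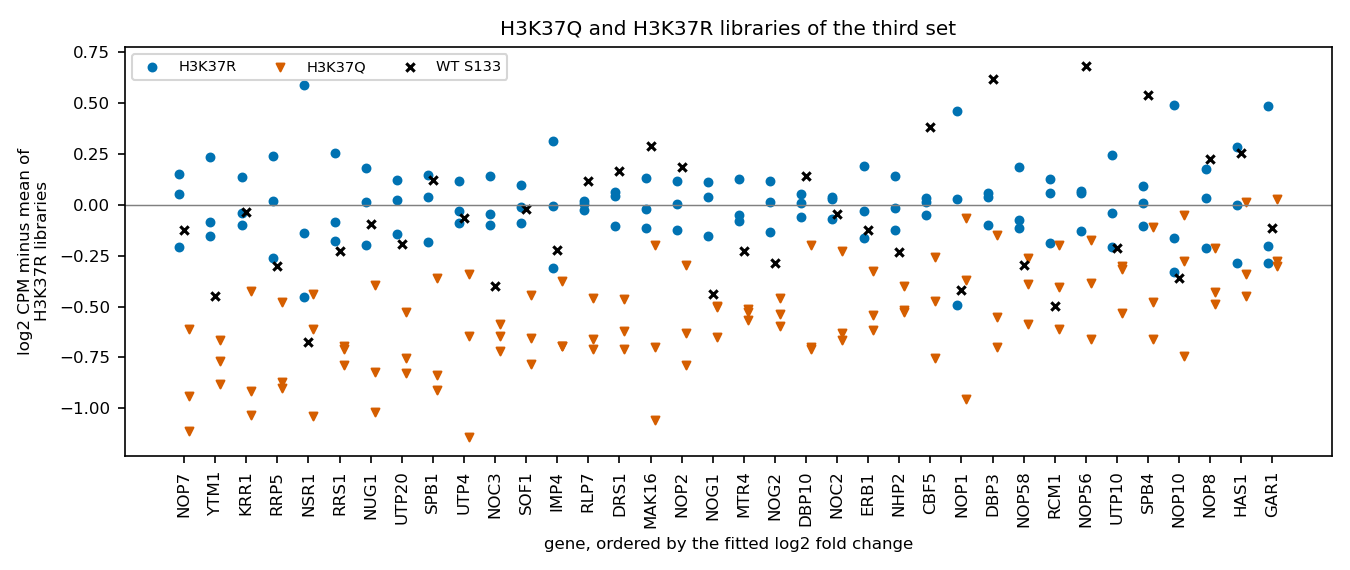
For each of the 36 genes, log2 CPM of the 3 H3K37Q libraries (triangles), the 3 H3K37R libraries (circles) and WT S133 (cross), minus the mean of the H3K37R libraries, with genes ordered by the fitted log2 fold change. The triangles lie below the circles for 31 of the 36 genes; WT S133 lies near or above the circles for helicases such as DBP3 and SPB4 and below them for YTM1 and NSR1.

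Against WT, H3K37Q gave a median of -0.51, with 35 of 36 members lower and 16 at an unadjusted p under 0.05 in that direction, against 6.9% of all genes. The call rule left 1 member, where 5.14% of all genes were called. That gene was RLP7 (YNL002C, chromosome XIV, 626174 to 627142), a ribosomal protein-like factor of large subunit assembly, at 475, 412 and 398 CPM in H3K37Q and 405, 1187, 898 and 708 CPM in WT S46, S81, S82 and S133. WT S46 lay inside the range of the mutant, so the groups overlapped (log2 fold change -0.90, adjusted p = 0.0437, edgeR), and 5 of 7 single libraries left out ended the call. Within the third set, against the 1 WT library there, whose spread is assumed to match the other groups, 11 members were called lower and 0 higher (6.11% of all genes called, 2.79% as lower). Among them were DBP3 (-1.07, adjusted p = 0.00344, edgeR) and NOP56 (-1.09, adjusted p = 0.00411), a helicase of large subunit assembly and a core box C/D protein. H3K37R was close to WT, with a median of 0.07, 22 members higher and 0 called, where 0.137% of all genes were called.

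The second block was seen in the 3 exchanges of H3K121. The median log2 fold change of the members against WT was -0.63 in H3K121Q, -0.50 in H3K121R and -0.34 in H3K121A, with 35, 34 and 32 of 36 members lower. These mutants share the WT libraries, so the 3 values are not independent. In H3K121Q 25 members had an unadjusted p under 0.05 in the lower direction, where 7.78% of all genes did, and in H3K121R 18 did, where 6.87% of all genes did. None passed the adjusted threshold in the fit to all 90 libraries, in which 1.01%, 4.38% and 0.0344% of all genes were called for Q, R and A; DESeq2 called 1 member, in H3K121Q.

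The libraries of these mutants did not move alike. The median over members of log2 CPM minus the WT mean was -1.04 and -0.67 in H3K121Q S79 and S80 of the first set but -0.16 in S110 of the second set. For H3K121R it was -0.26 and -1.13 in S77 and S78 and -0.20 in S109, and for H3K121A -0.25 and -0.77 in S75 and S76 and 0.01 in S108. WT libraries themselves ranged from -0.37 (S46) to 0.31 (S81). Each mutant's lowest library thus came from the first set, and the second-set library was nearest to WT in all 3.

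NOC3 (YLR002C, chromosome XII, 154343 to 156334), which joins large subunit assembly and DNA replication licensing, showed this with an even WT level of 116.2, 112.3, 116.9 and 115.9 CPM in S46, S81, S82 and S133. It stood at 60.4 and 55.7 CPM in H3K121Q S79 and S80 and at 108.2 CPM in S110. H3K121R had 81.3, 58.98 and 93.02 CPM in S77, S78 and S109, and H3K121A 72.7, 68.05 and 132.3 CPM in S75, S76 and S108. All 6 first-set libraries of H3K121 mutants lay below every WT library, and of the second-set libraries those of Q and R did too.

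Fitted to the 44 first-set libraries alone (a choice made after the data were seen), 11 members were called lower in H3K121Q, 7 in H3K121R and 1 in H3K121A. The shares of all genes called were 5.05%, 7.22% and 0.965%, and as lower 2.21%, 2.29% and 0.293%. The median was -0.89 in H3K121Q and -0.74 in H3K121R, with 36 of 36 members lower in both, and -0.56 in H3K121A. Genes of chromosome XI, where no member lies, had a median log2 fold change of 0.89 in H3K121R against WT, and they count in the shares of all genes called for that mutant. With scaling factors computed without them the called members were 11 in H3K121Q, 5 in H3K121R and 0 in H3K121A. The part of chromosome XI in the lower level of the members in H3K121R was not tested. UTP10, a scaffold of the small subunit precursor, had 210 and 331 CPM in H3K121Q and 423, 684 and 584 CPM in WT of that set (-1.07, adjusted p = 0.00513, edgeR). NOG2, a pre-60S GTPase, had 179 and 165 CPM against 336, 451 and 404 CPM (-1.23, adjusted p = 0.0094). NUG1, also a pre-60S GTPase, had 265 and 326 CPM against 546, 664 and 727 CPM (-1.14, adjusted p = 0.0229). In each of them both mutant libraries were below all 3 of WT.

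These counts depended on single libraries. In H3K121Q they were 0 without S79, 2 without S80, 3 without WT S81, 6 without WT S82 and 20 without WT S46. In H3K121R they were 0 without S78 or WT S81, 1 without WT S82, 12 without WT S46 and 14 without S77. In H3K121A they ranged from 0 to 9, the highest without S75. The shares of all genes called moved as well. In H3K121Q they were 3.10%, 2.95% and 9.29% without WT S81, S82 and S46. In H3K121R they were 5.29%, 4.93% and 8.45%. In the fit to all genotypes, leaving out H3K121Q S110 raised its called members from 0 to 13 (4.79% of all genes called). With the 28 other mutants averaged as the reference instead, 16 members were called lower in H3K121Q and 11 in H3K121R, beside 9.69% and 11.9% of all genes called in either direction. No member was called between any 2 of the 3 exchanges, in which 0 to 158 of all genes were called (0%, 2.71% and 2.58% for A against Q, A against R and Q against R).

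**Figure D3:**
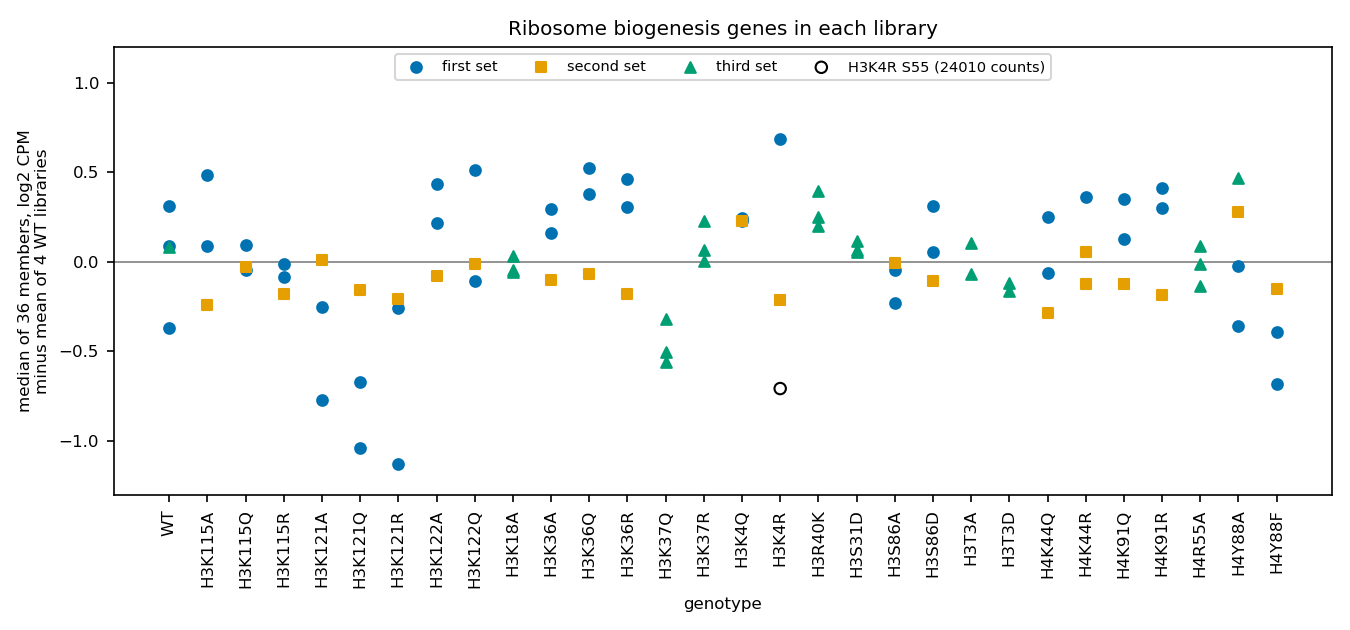
Median over the 36 genes of log2 CPM minus the mean of the 4 WT libraries, for each library, by genotype, with colour and shape for the set of sample numbers and an open circle for the shallow library H3K4R S55. The spread is widest in the first set, from -1.13 in H3K121R S78 to 0.69 in H3K4R S56, and narrow in the second, from -0.28 to 0.28; the 3 H3K37Q libraries lie together below 0.

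The library medians were spread most widely in the first set. Without H3K4R S55, their SD was 0.42 in the first set, 0.14 in the second and 0.24 in the third, and 21 of 43, 0 of 22 and 5 of 24 libraries lay further than 0.3 from the WT mean. Not every genotype followed this: H4K44Q lay at -0.06 and 0.25 in the first set and at -0.28 in the second, and H3K4Q at 0.23 and 0.25 in the first and 0.23 in the second. Stress-induced genes (the heat shock, trehalose and glycogen genes of a list of 23 tested) had library medians from -0.81 to 1.23 in the first set, -0.61 to 0.96 in the second and -0.94 to 1.74 in the third. The part of the set in the block differences was not tested beyond the fits within sets. Reads without a unique alignment per gene count also differed between libraries of a genotype. They were 1.846, 2.504 and 5.737 in H3K121A S76, S75 and S108, in the order of the members' medians. In H4Y88A S48, S47, S132 and S106 they were 2.19, 2.716, 5.577 and 6.087, with members higher in S132 and S106. In H3K121R S77, S109 and S78 they were 2.746, 3.245 and 3.513, with members lowest in S78. Their part in the block differences was not tested.

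H4Y88, a tyrosine where H4 meets the H2A-H2B dimer, gave a further pair of unlike exchanges. Members were lower in H4Y88F, with a median of -0.41 against WT, 34 of 36 lower and 6 at an unadjusted p under 0.05 (3.5% of all genes), and 0 called, where 0.0687% of all genes were. They were near WT in H4Y88A, with a median of 0.10 and 0 called (0.0172% of all genes). Set directly against each other, 35 members were higher in H4Y88A, the median was 0.54 and 18 had an unadjusted p under 0.05 (8.24% of all genes in that direction). Called were GAR1 and RRS1, where 1.51% of all genes were called.

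RRS1 (YOR294W, chromosome XV, 868340 to 868951), which brings the 5S RNA particle into the pre-60S subunit, stood at 138.98 and 182 CPM in H4Y88A S47 and S48 of the first set, 227 CPM in S106 and 210 CPM in S132. H4Y88F had 68.95, 72.9 and 111.4 CPM in S73, S74 and S107, below every H4Y88A library (log2 fold change 1.16, adjusted p = 0.0248, edgeR). GAR1 had 1066, 1596, 2931 and 3109 CPM in H4Y88A S47, S48, S106 and S132 and 783, 897 and 1368 CPM in H4Y88F (1.10, adjusted p = 0.0067), so S47 lay inside the range of H4Y88F. Leaving out 1 library ended the call of RRS1 in 4 of 7 fits (without H4Y88A S106 or S132 or H4Y88F S73 or S74) and that of GAR1 in 3 of 7 (without H4Y88A S132 or H4Y88F S73 or S74). Both were lost when the model held only these 7 libraries. The sets differed here too: members' medians in H4Y88A were -0.36 and -0.02 in the first set, 0.28 in the second and 0.47 in the third. Among first-set libraries alone, with 2 of each mutant, the median was 0.34 with 26 members higher, and NSR1 (1.21, adjusted p = 0.0347, edgeR) and RRS1 (1.18, adjusted p = 0.0494) were called, beside 5.15% of all genes.

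RCM1, GAR1 and ERB1 each had a called difference in a mutant whose members as a whole lay near or little above WT. RCM1 (YNL022C, chromosome XIV, 591427 to 592899), which methylates a cytosine of the large subunit RNA, had the largest share of its log2 variance between genotypes of any member (0.792, against a median of 0.523 over the members and 0.476 over all genes). In H3S86D it read 268, 220 and 249 CPM in S87, S88 and S113, above each of the other 86 libraries compared, the next being H4K91Q S71 with 202 CPM. WT had 101.3, 154, 118.9 and 74.6 CPM and H3S86A 109.1, 111.7 and 94.9 CPM. RCM1 was higher in H3S86D than in WT, by 1.13 on the log2 scale (adjusted p = 6.7e-05, edgeR; 0.756% of all genes called). For H3S86A against H3S86D the log2 fold change was -1.22 (adjusted p = 0.000192, edgeR; 0.0515% of all genes called). Both calls held with any 1 library left out, with the set as a covariate (adjusted p = 0.000135 and 9.61e-05) and in the first set alone (0.032 and 0.0109). They were lost when the model held only the libraries of both genotypes.

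Aspartate in place of serine is often used to mimic phosphorylation. Over all 36 members the median in H3S86D was 0.05 against WT, with 23 higher. Next to RCM1 in fitted log2 fold change were NSR1 (0.89), YTM1 (0.57), NOP10 (0.56) and NOP1 (0.56), and the lowest was MAK16, a large subunit factor (-0.75). None of these 5 passed the adjusted threshold against WT. Against the mean of the other mutants NOP10 (0.74, adjusted p = 0.0121, edgeR), NSR1 (0.73, adjusted p = 0.044) and YTM1 (0.59, adjusted p = 0.0253) were called higher beside RCM1, where 3.52% of all genes were called. The 3 libraries of H4K91Q, with 168, 202 and 161 CPM of RCM1, were next highest and lay above all 83 libraries outside both mutants. Against WT that difference was not called (log2 fold change 0.66), and against the mean of the other mutants it was (0.76, adjusted p = 6.72e-05, edgeR; 1.25% of all genes called).

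GAR1 (YHR089C, chromosome VIII, 282681 to 283298), a protein of the box H/ACA snoRNPs that carry out pseudouridylation, was higher in H3R40K. Its libraries had 2747, 3034 and 3184 CPM, and those of WT 1149, 1083, 1456 and 1422 CPM, without overlap (log2 fold change 1.23, adjusted p = 8.22e-05, edgeR; 8.85% of all genes called). Only H4Y88A S106 and S132, among 86 other libraries, exceeded the lowest of the 3. The call held with each library left out in turn (1.15 to 1.29). In the third set alone, against WT S133, the difference was 1.10 (adjusted p = 0.00879), but with the set as a covariate over all libraries it was 0.83 (adjusted p = 0.0512). Over all libraries of a set, the median of GAR1 was 1335 CPM in the first and 1594 CPM in the third (0.26 higher on the log2 scale). The genotypes of these sets mostly differ, and only WT and H4Y88A have libraries in both.

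The partners of GAR1 in the same particle did not share this size of difference in H3R40K, with fitted log2 fold changes against WT of 0.34 for NHP2, -0.18 for CBF5 and -0.07 for NOP10. None of these was called. As a block the members of H3R40K had a median of 0.23, with 30 of 36 higher and 9 without overlap above WT, against 10.6% of all genes. The H3R40K libraries were the deepest, with 2662526, 3143681 and 2632477 counts in genes, where no other library exceeded 2315153. They also had the fewest reads without a unique alignment per gene count (1.351, 1.255 and 1.615, against at least 1.841 elsewhere). Whether this bears on the differences of H3R40K was not tested. Within the third set, against the single library WT S133, the median of the members was 0.31 with 8 of 36 lower, against a median of -0.004 over all genes. Assembly factors outside the 36 had medians of -0.002 for the small and 0.09 for the large subunit in that fit. Cytosolic ribosomal protein genes had 0.27. RCM1 had 146, 151 and 159 CPM in H3R40K against 74.6 CPM in WT S133 (1.05, adjusted p = 0.00399, edgeR).

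ERB1 (YMR049C, chromosome XIII, 368094 to 370517), the scaffold of the NOP7 complex, was higher in H3K18A and in no other mutant past the threshold. It stood at 617, 637 and 612 CPM in H3K18A and at 261, 401, 336 and 338 CPM in WT, and no library outside H3K18A exceeded 519 CPM (log2 fold change 0.90, SE 0.203, adjusted p = 0.034, edgeR; 0.103% of all genes called). Its partners NOP7 and YTM1 had fitted changes of -0.24 and 0.04 and were not called. The call was lost when any of 6 of the 7 libraries was left out, with RLE scaling (adjusted p = 0.0538) and with the set as a covariate. In the third set alone, against the 1 WT library there, whose spread is assumed to match the other groups, ERB1 was called (0.90, adjusted p = 0.0153, edgeR), and NOP56, CBF5 and SPB4 were called lower and RCM1 higher (5.07% of all genes called).

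**Figure D4:**
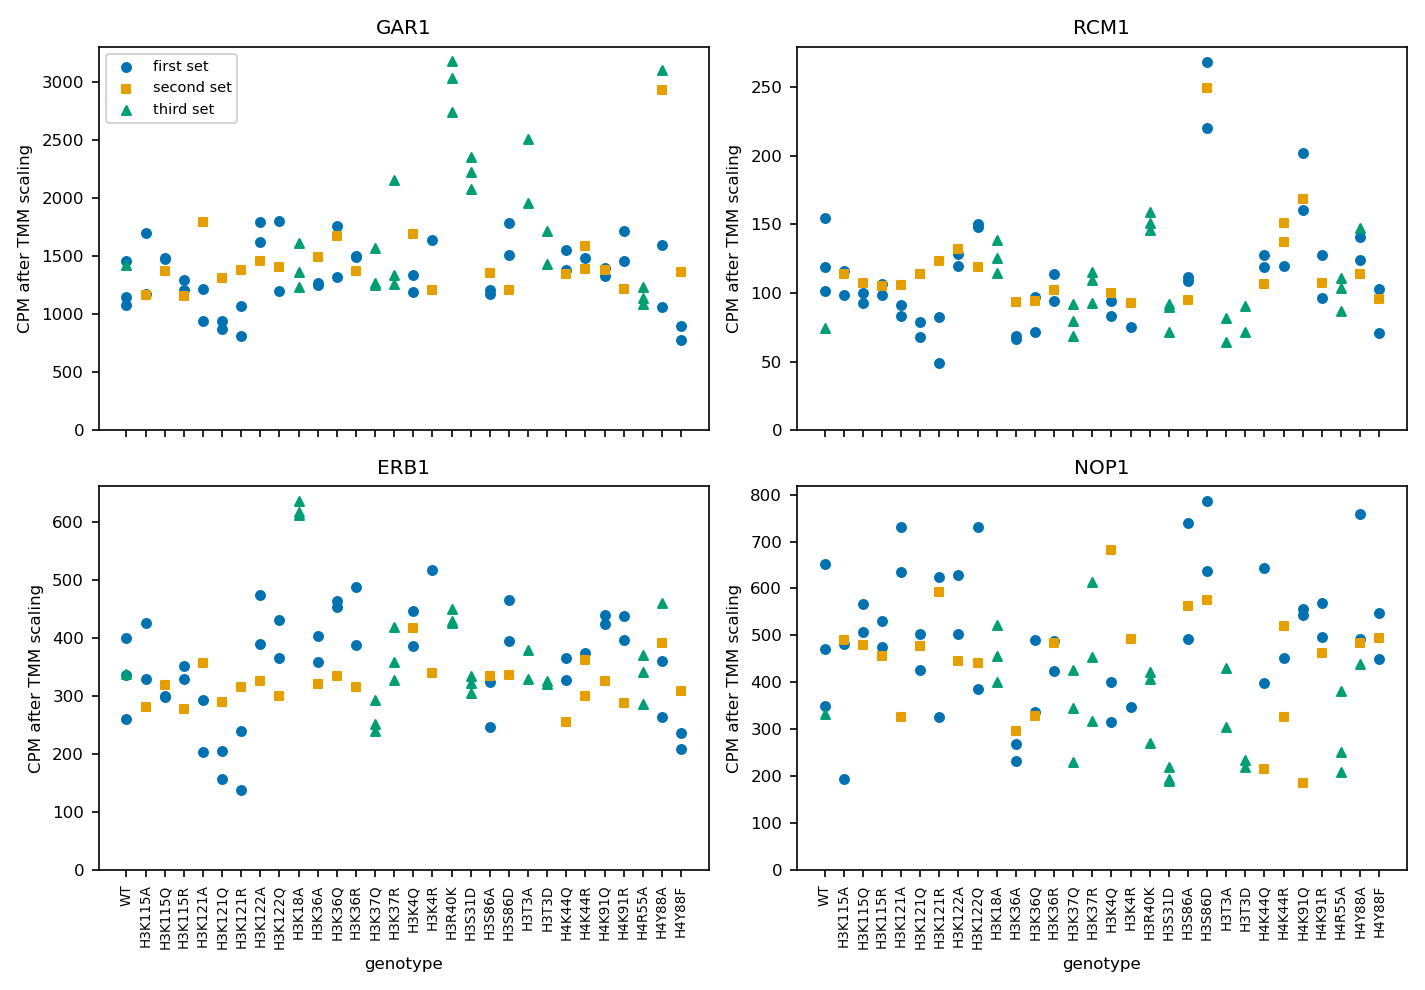
CPM after TMM scaling of GAR1, RCM1, ERB1 and NOP1 in each library except the shallow H3K4R S55, by genotype, with colour and shape for the set of sample numbers. GAR1 is highest in H3R40K and in 2 libraries of H4Y88A, RCM1 in H3S86D and ERB1 in H3K18A, while NOP1 in H3S31D lies at 191 to 220 CPM.

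H3S31D gave 3 called members in opposite directions, where 5.27% of all genes were called. NOP1 (YDL014W, chromosome IV, 427364 to 428347), the methyltransferase of the box C/D snoRNPs, had 191, 194 and 220 CPM against 471, 652, 350 and 333 CPM in WT (log2 fold change -1.16, adjusted p = 0.0297, edgeR). NOP10 (YHR072W-A, chromosome VIII, 241664 to 241840), the smallest protein of the box H/ACA particle, had 216, 210 and 243 CPM against 398, 602, 413 and 304 CPM (-0.94, adjusted p = 0.0295). GAR1, of that same particle, had 2360, 2229 and 2077 CPM, above all 4 WT libraries (0.80, adjusted p = 0.028). All 3 genes were without overlap between groups, but each call was lost in 5 of 7 fits with a library left out, with the set as a covariate (adjusted p = 0.405, 0.579 and 0.303 for NOP1, NOP10 and GAR1) and in the third set alone. The other members of H3S31D lay around WT, with a median of 0.03 over all 36.

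NOP1 and NOP10 belonged to different particles but followed each other. Over the 30 genotypes their fitted levels had a Pearson r of 0.95, and r was 0.70 and 0.78 for each with NSR1, a nucleolar protein that binds the early precursor RNA. Over the 89 libraries, after subtracting genotype means, NOP1 and NOP10 still had r = 0.88. NOP1 and NOP10 had little relation to the rest of the members, with r of -0.03 and 0.05 to the mean profile of the other 35, and to GAR1 (r = -0.26 and -0.15). The set medians of NOP1, NOP10 and NSR1 over all libraries were also lower in the third than in the first set, by -0.54, -0.45 and -0.48 on the log2 scale. These sets hold mostly different genotypes. They were low together in H3S31D and H3T3D and high together in H3S86D, where NOP1 averaged 667 CPM, NOP10 634 CPM and NSR1 3098 CPM, each its highest genotype mean.

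Most other members moved as 1 profile. The median r between members over the 30 genotype levels was 0.66, against about 0 between all tested genes, and 437 of 630 pairs exceeded 0.5. The points share scaling and the pooled fit, so these are descriptions without a test. Against the mean profile of the others, 33 of 36 members had r above 0.5, led by MTR4 (0.96) and UTP20 (0.95), and RCM1 had 0.40. H3K121Q was the genotype with the lowest mean level for 21 of the 36 members and H3K37Q for 8, while H3K36Q was the highest for 11 and H3R40K for 9.

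The members' profile was shared with assembly factors outside the set of 36. The 10 genes whose fitted genotype levels were most like the members' mean were MRD1, NMD3, RRT14, SAS10, ENP2, PWP1, NOP13, FCF2, RRP1 and MPP10, with r from 0.97 to 0.92 over 30 genotypes. Of 67 other small subunit factors 56 had r above 0.5 and of 60 other large subunit factors 47 did, whereas 6.71% of all other tested genes did. The median r was 0.34 over 22 genes of RNA polymerase I, which makes the ribosomal RNA precursor, and -0.21 over the genes of cytosolic ribosomal proteins, of which 0 exceeded 0.5. Stress-induced genes had a median r of -0.47.

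The related lists can be set beside the members in the H3K37 pair within the third set. There 42 of 67 other small subunit factors and 36 of 60 other large subunit factors were called lower in H3K37Q, and 1 and 0 higher, with medians of -0.58 and -0.64. RNA polymerase I genes had 4 of 22 called lower and 1 higher. Of the cytosolic ribosomal protein genes 2.92% were called lower and 2.19% higher. Most of them lay lower in H3K37Q, with a median of -0.17, against -0.02 over all genes. Against WT S133 in the same fit the median of the ribosomal protein genes in H3K37Q was 0.21. Of 23 stress-induced genes 18 were called higher and 0 lower, with a median of 1.48. Against WT S133 in the same fit their median in H3K37Q was 0.85. The H3K37R libraries S121, S122 and S123 had stress medians of -0.60, -0.38 and -0.67 relative to the WT mean. The stress genes' part in the difference of the members was not tested. In the fit to all 90 libraries, called stress genes of this pair included TSL1 of trehalose synthesis (3.30, adjusted p = 0.00196, edgeR) and the disaggregase HSP104 (1.94, adjusted p = 0.00631).

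How the stress list and the members relate in other mutants was not tested, and their medians are given side by side. In the first set H3K121Q had stress and member medians of 0.96 and -0.89, and H4Y88F 1.14 and -0.59. H3K121R had 0.40 and -0.74 there, and H3K121A -0.03 and -0.56. In the fit to all libraries H3T3A and H3T3D had stress medians of 1.28 and 1.53 with member medians of 0.00 and -0.17. These third-set mutants were compared there with the pooled WT libraries. Cytosolic ribosomal proteins, which share upstream regulation with the assembly factors, had medians of 0.19 in H3K121Q, -0.06 in H3K37Q and 0.29 in H3K121A, while the members' medians there were -0.63, -0.51 and -0.34.

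**Figure D5:**
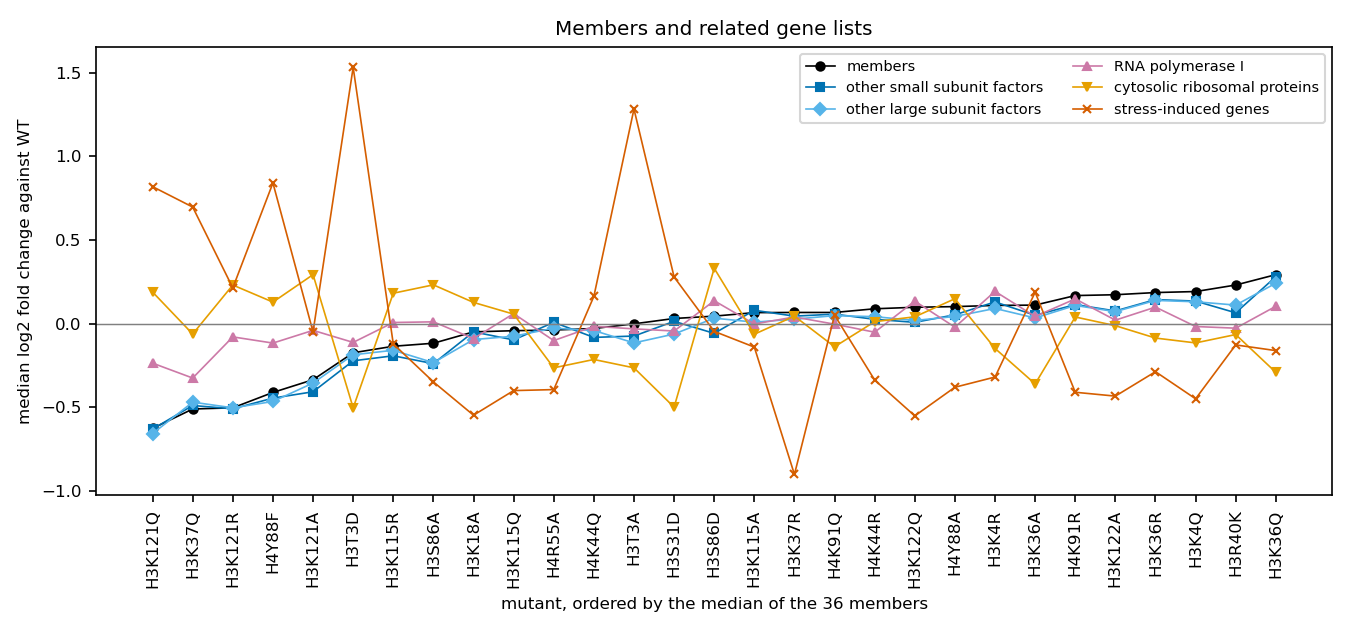
Median fitted log2 fold change against WT of the 36 members and of 5 related gene lists in each of the 29 mutants, ordered by the members' median. The small and large subunit factors run beside the members from H3K121Q on the left to H3K36Q on the right, while the stress-induced genes are highest in H3T3D and H3T3A and the ribosomal protein genes do not follow the members.

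On the higher side, H3K36Q had a median of 0.29 with 32 of 36 members higher, but 0 were called, where 0.567% of all genes were, and 1 had an unadjusted p under 0.05 (5.38% of all genes in that direction). That member was SPB4, a helicase of large subunit assembly (log2 fold change 0.67). Its libraries split by set as those of H3K121 did, with medians of 0.53 and 0.38 in the first set and -0.07 in the second. H3K4R, with 1 deep library in each of these sets, had 0.69 and -0.21.

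In their scatter within genotypes the members lay close to all genes at the median and above genes of a similar level. The SD of log2 CPM between libraries of a genotype had a median of 0.35 over the members, from 0.24 in RCM1 to 0.45 in NOP56, against 0.37 over all genes and 0.30 over 1706 genes of a similar mean CPM. The share of the within-genotype variance that went with the set was 0.0879 at the median, against 0.125 over all genes and 0.147 over those 1706 genes. NOP56 was highest at 0.504 and NSR1 lowest at 0.00202. Between the set medians over all libraries, NOP56 was 0.60 lower on the log2 scale in the second than in the first set, and UTP20 0.54 lower.

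In the authors' deposited table of log2 fold changes over WT, the median of the members was lowest in the same 5 mutants, with -0.67 in H3K121Q, -0.60 in H3K37Q, -0.54 in H3K121R, -0.46 in H4Y88F and -0.33 in H3K121A. The authors' deposited table gave 1.13 for GAR1 in H3R40K and 0.95 for RCM1 in H3S86D.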

How the data were processed

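The authors deposited raw counts per gene for 90 QuantSeq libraries, in a table whose columns carry genotype and sample number, and their own log2 fold changes over WT, used only where named. The submitters' processing notes list the sacCer3 build and, in no stated order, featureCounts 1.5.3, HTSeq and TopHat; whether counting used strand is not given in the sources used here. Of the 7122 genes, 6045 (84.9%) matched RefSeq locus names. The 5 HTSeq summary lines were left out, and the 14 ATAC-seq samples were not analysed here.

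The 36 members, the lists of related genes and the tests were chosen with earlier results of these data known. Counts were filtered with filterByExpr over genotypes, scaled by TMM and fitted with edgeR 4.0.16 (R 4.3.3), 1 coefficient per genotype, 60 residual degrees of freedom, two-sided, with Benjamini-Hochberg adjustment within each of 29 mutant, 17 pair and 1 pooled comparison. The common dispersion was 0.0543. Log2 levels used a prior count of 2. Alternatives were DESeq2 1.42.0, RLE scaling, no filter, a minimum log2 change of 0.5, the set as a covariate, only both genotypes, other mutants as reference, scaling without chromosome XI and each library left out. Fits within a set, and their repeats, were added after the data were seen. Between libraries of a genotype counts differed beyond counting error in all 90 pairs checked (chi-square over degrees of freedom at least 2.09). Of the members only NOG2 overlaps another annotated gene. All members could be named, and other genes where called in a list or among the 10 most alike. The pipeline was tested on simulated data. A planned search for promoter motifs was not run.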

Additional observations from a re-analysis of the deposited data

Results flagged for a closer look

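NOP1 in H4Y88A stood at 758 CPM in S48, far above the other 3 libraries of that genotype, which had 438 to 493 CPM. This was 1 of 72 combinations of a member with a group of 4 libraries (WT and H4Y88A); chance flags about 1 in 20.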

How the results depend on the processing

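The 7 member calls over the mutants came to 52 with the mean of the 28 other mutants as reference and 2 with only the libraries of both genotypes, and ranged from 4 to 20 with 1 library left out. With the other mutants in place of WT, the share of all genes called rose as well. It went from 1.01% to 9.69% in H3K121Q, from 4.38% to 11.9% in H3K121R and from 8.85% to 16.2% in H3R40K. Called members came to 0 with RLE scaling in H3K18A, H3K37Q and H3K37Q against H3K37R. They were 0 in that pair without the filter and without chromosome XI in the scaling, which also left 0 in H3K37Q. With the set as a covariate they were 1 in H3K121Q (1.34% of all genes called) and H3K36Q (1.15%), 3 in H3K36A (7.68%), 2 in H3K37Q (3.95%) and 5 in H4Y88A against H4Y88F (5.14%). In those fits they were 0 in H3K18A (0.275%), H3R40K (7.51%) and H3S31D (0.704%). With the other mutants as reference they were 16 in H3K121Q (9.69% of all genes called), 11 in H3K121R (11.9%), 6 in H3R40K (16.2%) and 4 in H3S86D (3.52%). With that reference they were 3 in H3K36A (5%) and H3K37Q (7.57%) and 2 in H3T3D (11.7%). They were 1 in H3K36Q (1.51%), H4K91Q (1.25%) and H4Y88A (0.584%). With only both genotypes they were 17 in H3K37Q against H3K37R (10.9% of all genes called), 1 in H3S31D, and 0 in H3K18A, H3K37Q, H3S86D, H3S86A against H3S86D and H4Y88A against H4Y88F. DESeq2 gave 1 in H3K121Q and H4K91Q and 5 in H4Y88A against H4Y88F. The first set alone gave 1 in H3K121A, 11 in H3K121Q, 7 in H3K121R and 2 in H3K36A, and the third set alone 5 in H3K18A, 11 in H3K37Q, 7 in H3R40K, 0 in H3S31D and 26 in H3K37Q against H3K37R. Beside the 2 members of H3K36A in the first set alone, 5.88% of all genes were called. The cause of the differences between these alternatives was not tested.

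With 1 library left out, called members ranged from 0 to 13 in H3K121Q, 0 to 4 in H3K121R, 0 to 1 in H3K18A, H3T3A, H4K91Q and H4Y88A, 0 to 2 in H3K36A and H3K37Q, 1 to 2 in H3R40K, 0 to 4 in H3S31D and 0 to 7 in H4Y88A against H4Y88F, and were 0 throughout in H3K37Q against H3K37R. No called member changed direction under any alternative run. No paired analysis was possible because the columns of the count table carry no replicate number. The depth of H3K4R S55 leaves 20 members with fewer than 10 counts there.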
